A study of Mus musculus with 2 samples.

Results

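The eIF2 kinases and the integrated stress response were followed through 10 genes of 43346 in the deposited gene tables of G1E, a mouse erythroid progenitor line. The 10 were chosen by symbol from the known pathway and not ranked by their values, though earlier results of these data were known. They comprise the kinases Eif2ak1, Eif2ak2, Eif2ak3 and Eif2ak4, their substrate Eif2s1, the transcription factors Atf4 and Ddit3, the phosphatase regulators Ppp1r15a and Ppp1r15b, and the pseudokinase Trib3. G1E is an immortalized line that the labels call a Gata1- erythroid progenitor of strain C57BL/6J, male and of postnatal stage, with an age of 0 days. It is known to derive from Gata1-targeted embryonic stem cells, so it is 1 line and both replicates share its history. Both libraries came from that line, as biological replicates 1 and 2 of 1 group with no treatment named, so Gata1 loss is shared by all the material and no condition is compared. Per the labels, 100 ng of RNA depleted of ribosomal RNA went into ScriptSeq libraries with a size range of 200 to 1000. The series therefore answers how the genes of the pathway stood relative to each other in these cells, and how far the replicates differed.

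In the integrated stress response, several kinases that sense different stresses add a phosphate to the same serine of eIF2α, the product of Eif2s1. The phosphorylated factor blocks its own exchange factor, eIF2B, which lowers protein synthesis in general and lets a few mRNAs with upstream reading frames, Atf4 among them, be translated more. In erythroid precursors the kinase encoded by Eif2ak1, also called HRI, is activated when haem is short and holds back globin synthesis. Because this control acts on protein phosphorylation and translation, mRNA levels measure the parts present and not the activity of the pathway.

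The base sequence at the centre of the pathway is the codon that all of these kinases act on. It lies in exon 2 of the 8 exons of Eif2s1, on the plus strand at chr12:78866659-78866703 (mm10). The serine codon, number 52 of 315 when the start codon is counted as 1, is in capitals within 45 coding bases, 5′ to 3′, taken from the GENCODE M21 transcript.
Eif2s1: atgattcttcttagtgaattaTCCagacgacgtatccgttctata

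Replicate 1 held 58094631 expected counts on genes and replicate 2 held 55274368. Levels are given as TPM, which are length-corrected and scaled to 1 fixed total over all RNA of a library. Nuclear protein-coding genes took 18.0% and 17.0% of that total in replicates 1 and 2, and some values are also given as TPM rescaled to those genes alone. All 9 erythroid progenitor markers examined were detected, with summed levels of 594 and 565 TPM. Of 4 mast cell and basophil markers, Cpa3 at 105 ± 11.3 TPM and Cma1 at 36.2 ± 0.212 TPM were detected, whereas Fcer1a stood at 0.030 ± 0.014 TPM and Mcpt8 had 0 counts (SD, n = 2). The list summed to 149 and 133 TPM, and its part in the levels below was not tested. None of the 4 macrophage and granulocyte, 3 lymphoid and 3 fibroblast markers reached 1 TPM in both libraries. In bulk RNA, fewer cells of a type and less RNA per cell cannot be told apart.

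The mRNAs of all 4 kinases and of their substrate were present. A gene counted as detected at 1 TPM or more in both libraries, which 38.7% of nuclear protein-coding genes were. Of the 10 pathway genes, 9 were detected, and the tenth, Trib3, was counted at a low level in each library. Their median was 11.6 ± 0.258 TPM (SD of the 2 library medians), against 7.0 TPM for the median detected nuclear protein-coding gene and 0.055 TPM for the median of all nuclear protein-coding genes. The order of mean TPM was Eif2s1, Ddit3, Ppp1r15b, Atf4, Ppp1r15a, Eif2ak2, Eif2ak1, Eif2ak4, Eif2ak3 and Trib3.

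**Figure D1:**
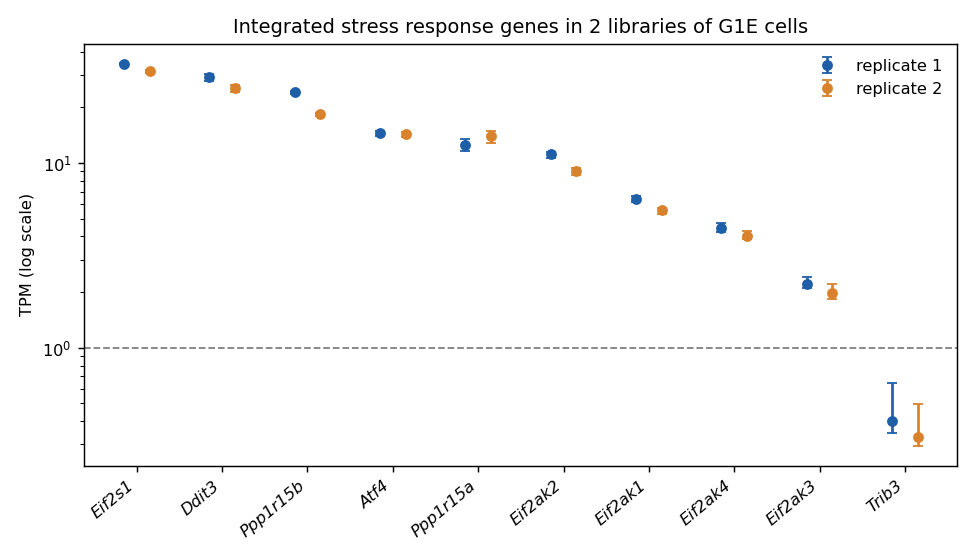
TPM (log scale) of the 10 genes in replicate 1 and replicate 2 of G1E, in order of mean TPM. Points are the deposited TPM values, bars the authors' TPM intervals (for some genes the point lies near the edge of its bar), and the dashed line marks 1 TPM. Trib3, at 0.40 and 0.33 TPM, is the 1 gene under the line.

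Among the kinases, the double-stranded RNA sensor was the most abundant mRNA and the endoplasmic reticulum sensor the least. Eif2ak2 encodes PKR, which is switched on by double-stranded RNA (chromosome 17, 78852564 to 78882573, minus strand, mm10). It stood at 11.1 and 9.02 TPM, a mean of 10.1 ± 1.47 (SD, n = 2), from 6562 and 5509 counts. The haem-regulated kinase gene Eif2ak1 (chromosome 5, 143817788 to 143904251, plus strand) followed with 6.41 and 5.55 TPM and 4197 and 3646 counts. Eif2ak4 encodes GCN2, which senses uncharged tRNA and so amino acid shortage (chromosome 2, 118388618 to 118475234, plus strand). It had 4.42 and 4.02 TPM from 3407 and 3110 counts. The lowest was Eif2ak3 with 2.22 and 1.97 TPM from 1559 and 1304 counts. Its product PERK spans the endoplasmic reticulum membrane and responds to unfolded protein there (chromosome 6, 70844515 to 70905245, plus strand).

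The 4 kinases summed to 24.2 and 20.6 TPM in replicates 1 and 2. Eif2ak2 made up 44.9% ± 1.48 of that sum, Eif2ak1 26.8% ± 0.319, Eif2ak4 18.9% ± 0.884 and Eif2ak3 9.39% ± 0.275 (SD, n = 2). The order was the same in both libraries. Relative to detected nuclear protein-coding genes, Eif2ak2 lay at percentile 63.3, Eif2ak1 at 44.4, Eif2ak4 at 32.4 and Eif2ak3 at 12.1. In this erythroid line the haem-regulated kinase mRNA was thus near the middle of detected coding genes and second among the kinases.

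To ask which differences in level exceed the replicate error, the log2 ratio of TPM + 1 between a pair of genes was set against 3 times the combined replicate SD of their abundance ranges. A pair passed where both libraries exceeded that limit in the same direction. The replicate SD on the log2(TPM + 1) scale was 0.17 under 10 TPM, over 5672 detected genes, and 0.24 between 10 and 100 TPM, over 3029 detected genes. Of the 6 kinase pairs, 4 passed. Eif2ak2 exceeded Eif2ak3 by a log2 ratio of 1.83 ± 0.11 and Eif2ak4 by 1.08 ± 0.11, with a limit of 0.90 for both. Eif2ak1 exceeded Eif2ak3 by 1.17 ± 0.04 and Eif2ak4 exceeded Eif2ak3 by 0.75 ± 0.004, with a limit of 0.73 for both. The last of these did not pass when TPM was rescaled to nuclear protein-coding genes. With the SD taken from all genes above 0, neither it nor Eif2ak2 over Eif2ak4 passed. Eif2ak2 over Eif2ak1, at 0.66 ± 0.07, and Eif2ak1 over Eif2ak4, at 0.42 ± 0.05, lay inside their limits of 0.90 and 0.73, so these neighbours in the order were not separated.

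The kinases' substrate was the most abundant of the 10 mRNAs. Eif2s1 encodes eIF2α, the regulated subunit of the factor that brings the initiator tRNA to the ribosome (chromosome 12, 78861819 to 78887010, plus strand). It had 34.4 and 31.5 TPM, a mean of 33.0 ± 2.02 (SD, n = 2), from 18530 and 17248 counts, and lay at percentile 89.5 of detected nuclear protein-coding genes. In TPM it stood at 1.42 and 1.53 times the sum of the 4 kinases in replicates 1 and 2. It stood at 5.36 and 5.68 times Eif2ak1 and at 15.5 and 16.0 times Eif2ak3. These are ratios of mRNA per length and say nothing of protein amounts.

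The other subunits and partners of eIF2 and its exchange factor eIF2B were expressed alongside it. In 9 of 10 such genes the level reached 1 TPM in both libraries, and the median was 20.4 ± 1.91 TPM (SD of the library medians). The highest were Eif2s3x, which encodes the gamma subunit, at 46.3 ± 6.64 TPM, Eif5, the GTPase-activating protein of eIF2, at 31.4 ± 5.83 and Cdc123, an eIF2 assembly factor, at 30.6 ± 3.31 (SD, n = 2). The eIF2B subunit gene Eif2b3 was the lowest detected at 5.71 ± 0.262 TPM. Eif2s3y, the Y-linked copy of the gamma subunit gene, had 0 and 3 counts in this line labelled male.

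In TPM, both transcription factor genes exceeded the kinase genes Eif2ak1, Eif2ak4 and Eif2ak3. Ddit3 encodes CHOP, a C/EBP family factor that is low in many unstressed cells (chromosome 10, 127290774 to 127296288, plus strand). It had 29.2 and 25.4 TPM, a mean of 27.3 ± 2.72, from 2979 and 3021 counts, at percentile 86.8 of detected nuclear protein-coding genes. Atf4 encodes the main transcriptional effector of the response (chromosome 15, 80255184 to 80257541, plus strand). It had 14.5 and 14.3 TPM, a mean of 14.4 ± 0.106, from 3698 and 3743 counts, at percentile 73.3 (SD, n = 2). Ddit3 over Atf4 gave a log2 ratio of 0.87 ± 0.13 against a limit of 1.03, so their order was not separated from the replicate error. Without length correction the direction turned, with a log2 ratio of -0.31 in CPM, counts scaled by library total alone, Ddit3 being the shorter mRNA. Ddit3 and Atf4 passed their limit of 0.90 over Eif2ak4, with log2 ratios of 2.44 ± 0.06 and 1.56 ± 0.07, and over Eif2ak3, with 3.19 ± 0.06 and 2.32 ± 0.07. In CPM the ratios over Eif2ak4 were -0.12 and 0.19, neither past the limit. Over Eif2ak1, Ddit3 and Atf4 passed the limit of 0.90 with 2.02 ± 0.01 and 1.15 ± 0.12. In CPM these ratios were -0.38 and -0.071, neither past the limit. Ddit3 passed its limit of 1.03 over Eif2ak2 at 1.36 ± 0.05, whereas Atf4 over Eif2ak2 at 0.49 ± 0.18 did not. In CPM Ddit3 over Eif2ak2 turned to -0.99, past the limit of 0.75 in that direction. Eif2s1 exceeded Atf4 by 1.14 ± 0.08 and passed the limit of 1.03. With the SD taken from all genes above 0, Eif2s1 over Atf4 did not pass. Nor did Atf4 over Eif2ak4, Atf4 over Eif2ak1 or Ddit3 over Eif2ak2.

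The phosphatase that reverses the kinases' mark had both its regulators above the middle of detected coding genes, Ppp1r15b at percentile 82.6 and Ppp1r15a at 70.8. Ppp1r15b encodes the constitutive regulator CReP (chromosome 1, 133131143 to 133139783, plus strand), and Ppp1r15a encodes GADD34, which is induced in the stress response and gives negative feedback (chromosome 7, 45522916 to 45526268, minus strand). Ppp1r15b had 24.3 and 18.4 TPM, a mean of 21.3 ± 4.17, from 17101 and 13065 counts. Ppp1r15a had 12.6 and 13.9 TPM, a mean of 13.2 ± 0.955, from 4174 and 4240 counts (SD, n = 2). Ppp1r15b was the higher in each library, but the log2 ratio of 0.64 ± 0.37 lay inside its limit of 1.03. Restricted to protein-coding transcripts, the direction turned to -0.46, and most Ppp1r15b TPM was assigned to a noncoding transcript described below. The mRNAs of the catalytic subunits and the actin partner of this phosphatase were all detected, 4 of 4. Their median was 78.5 ± 4.60 TPM (SD of the library medians). The beta-actin gene Actb stood at 565 ± 52.2 TPM. Of the catalytic subunit genes Ppp1ca stood at 97.3 ± 7.80, Ppp1cc at 59.7 ± 1.41 and Ppp1cb at 20.0 ± 4.83 (SD, n = 2).

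Trib3, a pseudokinase gene that ATF4 and CHOP induce and whose product restrains them, was the 1 gene of the 10 below 1 TPM. It had 0.40 and 0.33 TPM, a mean of 0.365 ± 0.050 (SD, n = 2), from 113 and 103 counts (chromosome 2, 152337422 to 152344032, minus strand). The authors' intervals ran from 0.344 to 0.645 TPM in replicate 1 and from 0.293 to 0.498 TPM in replicate 2. Its counts lie above the 3 counts that a count of 0 allows, which would be 0.011 and 0.010 TPM. Rescaled to nuclear protein-coding genes it stood at 2.08 ± 0.192 and would count as detected (SD, n = 2). Eif2ak3, the next lowest, exceeded it by a log2 ratio of 1.18 ± 0.03 against a limit of 0.73, and Atf4 did by 3.50 ± 0.04 against 0.90. The replicate SD used for Trib3 came from detected genes under 10 TPM. Its paralogs were lower still, Trib1 with 53 and 21 counts and Trib2 with 14 and 4, and neither was detected. Low Trib3 thus stood beside Atf4 and Ddit3 mRNAs at percentiles 73.3 and 86.8 of detected coding genes.

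Over all 45 pairs of the 10 genes, 31 passed the limit, and 21 did with the SD taken from all genes above 0. The order was the same in both libraries in 45 of 45. Among the 9 detected genes, 22 of 36 pairs passed, which is 61.1%, and 62.0% of all pairs of detected nuclear protein-coding genes passed the same rule. The pathway genes were therefore spread about as widely as detected coding genes in general. Of 9 neighbours in the order, 2 passed, Eif2ak4 over Eif2ak3 and Eif2ak3 over Trib3. No pair passed among Eif2s1, Ddit3 and Ppp1r15b, nor among Atf4, Ppp1r15a and Eif2ak2. The former result depended on the measure. With protein-coding transcripts alone, Eif2s1 and Ddit3 passed over Ppp1r15b, at 1.97 and 1.23 against 0.72. In CPM Eif2s1 over Ddit3 passed at 2.55 against 0.75, and Ddit3 over Ppp1r15b passed in the opposite direction at -2.30. Ppp1r15a over Eif2ak1, at 1.03 ± 0.22 against a limit of 0.90, did not pass in both libraries, but did after rescaling to nuclear protein-coding genes, at 1.12 against 0.94.

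**Figure D2:**
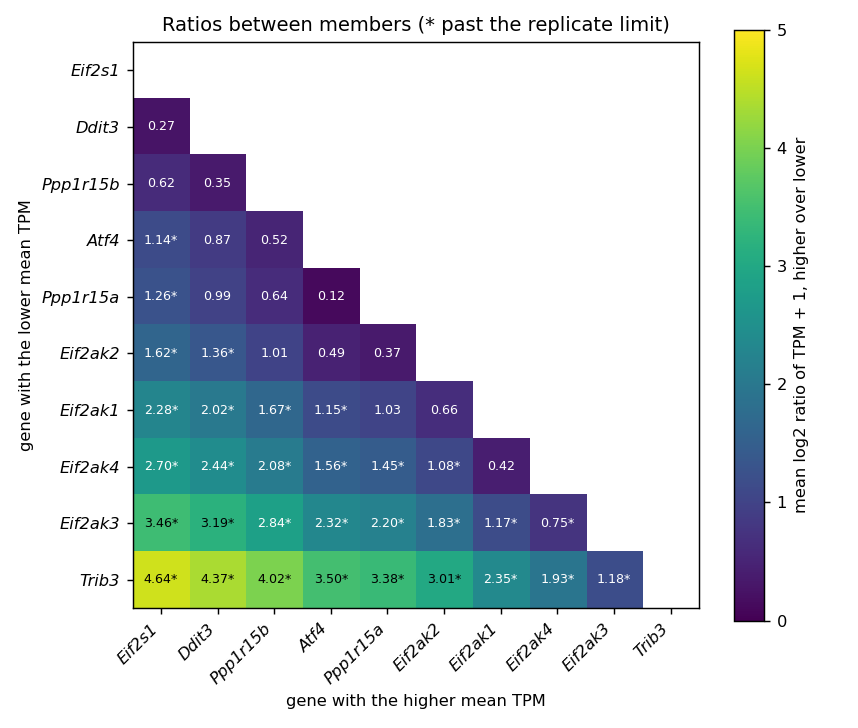
Mean log2 ratio of TPM + 1 over the 2 libraries for each pair of genes, the gene with the higher mean TPM on the horizontal axis and the lower on the vertical, both in order of mean TPM. An asterisk marks the 31 of 45 pairs whose ratio passed the replicate limit in both libraries; colour follows the printed value.

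To see how far the replicates differed, rounded expected counts were put to an exact binomial test, two-sided and Benjamini-Hochberg adjusted over 18409 genes, with calls at an adjusted p under 0.05 and at least 2-fold. This compares libraries and not conditions, and it knows counting error only. By this rule 13.9% of the genes tested were called, 4.11% higher and 9.83% lower in replicate 2, and 10.3% of tested nuclear protein-coding genes were. Of the 10 pathway genes 0 were called, also with DESeq2 size factors, with 6 at an unadjusted p under 0.05 and 6 at an adjusted p under 0.05 by the same exact binomial test without the minimum fold, a criterion that 49.4% of all tested genes met. All log2 count ratios are of counts scaled by library size with TMM factors, a normalization between libraries. On this scale Ppp1r15b moved most, by a log2 ratio of -0.23 of replicate 2 over replicate 1 (adjusted p = 8.3e-40, exact binomial test). Ppp1r15a, Ddit3 and Atf4 lay higher in replicate 2 by 0.19, 0.18 and 0.18. The median size of the log2 count difference was 0.09 for the 10 genes and 0.14 for detected nuclear protein-coding genes. TPM was lower in replicate 2 for 9 of the 10, beside a median log2 TPM ratio of -0.14 over detected nuclear protein-coding genes. The TMM-scaled counts showed no such common fall, with a median log2 count ratio of 0.03 for the 10. TPM and TMM-scaled counts are normalized in different ways, and the cause of this difference was not tested. Eif2s1, Eif2ak4, Atf4, Ddit3 and Trib3 were lower in TPM but higher in TMM-scaled counts. Before this scaling, counts rose in replicate 2 for Ppp1r15a, Atf4 and Ddit3 alone and fell for the rest.

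At the level of transcripts, 8 of the 10 genes have more than 1 annotated transcript, and in 8 of 8 the same transcript led in both libraries, against 88.2% of 6210 detected coding genes. Their leading transcripts held a median of 80.9% of the gene's TPM, against 67.9% over those detected coding genes. Atf4, with a 1724 nt transcript, and Eif2s1, with a 3405 nt transcript, have 1 each in the tables. Eif2ak1, Eif2ak2 and Eif2ak3 were each carried by their longest coding transcript. It held 91.6% and 90.5% of Eif2ak1 TPM (4330 nt), 83.8% and 85.5% of Eif2ak2 TPM (4313 nt) and 92.9% and 86.6% of Eif2ak3 TPM (4513 nt) in replicates 1 and 2. Retained-intron transcripts took 8.40% and 9.49% of Eif2ak1 TPM. Of Trib3 TPM the 2026 nt coding transcript held 92.0% and 100%, or 72.5% and 82.8% as posterior means.

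Ppp1r15b was the 1 gene of the 10 led by a noncoding transcript. A processed transcript of 3688 nt held 63.1% and 64.1% of its TPM, and the 5594 nt coding transcript 36.9% and 35.9%, or 8.94 and 6.59 TPM, in replicates 1 and 2. The shorter one has 0 bases of its own and covers 18.5% of the coding bases. The posterior SD of its count was 92.8 and 73.8 on 8983 and 6998 counts. Of detected coding genes with a typed leader, 8.91% were led by a transcript not typed as protein-coding. In Ddit3 a retained-intron transcript of 969 nt held 28.0% and 30.1% of the TPM. It has 823 bases of its own and covers none of the coding bases, and coding transcripts together gave 21.1 and 17.7 TPM.

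The division among coding transcripts was less stable in Ddit3 and Eif2ak4. The 890 nt Ddit3 transcript held 39.0% and 62.0% in replicates 1 and 2, and a 600 nt one with an incomplete end and 0 bases of its own held 33.0% and 7.87%. In Eif2ak4 the 5212 nt leader held 81.4% and 52.6%, and a 4906 nt transcript held 0.40% and 16.9%, or 1.21% and 8.29% as posterior means. That transcript shares 99.3% of its bases with the leader. The leader's share moved by 28.8 percentage points in Eif2ak4 and 23.0 in Ddit3, which lay at percentiles 97.0 and 94.5 of the same measure over detected coding genes. For Ppp1r15a the 2333 nt coding transcript held 80.1% and 74.0%, and a 389 nt transcript absent from GENCODE M21 held 10.1% and 19.6%. Gene totals do not depend on these splits except through the effective length.

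**Figure D3:**
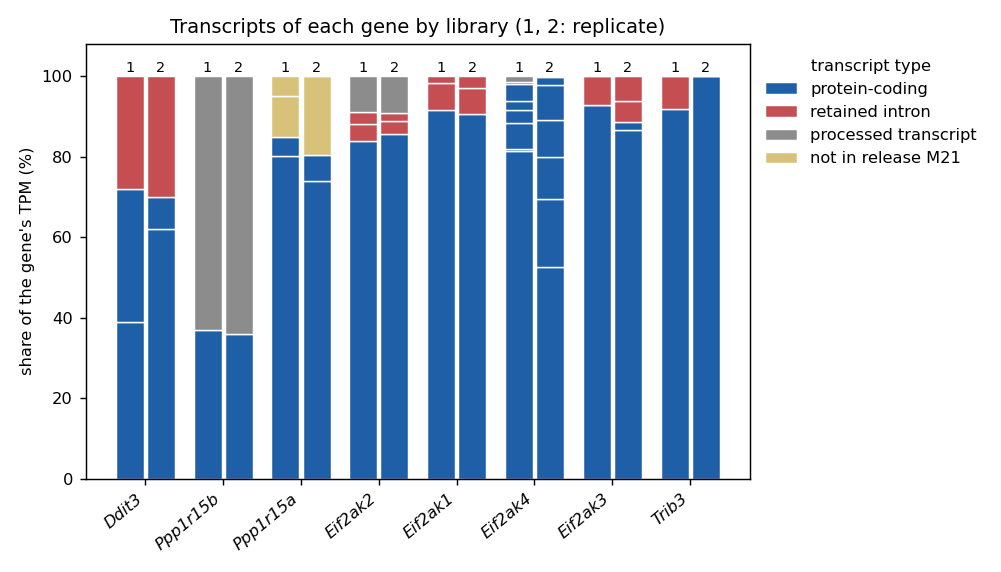
Share of each gene's TPM (percent) held by each transcript in replicate 1 (left bar) and replicate 2 (right bar) for the 8 genes with more than 1 transcript, coloured by GENCODE M21 transcript type, with white lines between transcripts. Ppp1r15b is mostly processed transcript in both libraries, and the split among Eif2ak4 and Ddit3 coding transcripts differs between libraries.

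Some members share bases with a neighbour, and neither labels nor headers say whether counting used strand. Eif2ak1 overlaps Aimp2 on the opposite strand by 1548 bases, and Aimp2 held 1546 and 1487 counts against 4197 and 3646 for Eif2ak1. Eif2ak1 also overlaps Ankrd61 on the opposite strand by 6945 bases, where Ankrd61 held 10 and 3 counts. Ddit3 overlaps Mars, a methionyl-tRNA synthetase gene on the opposite strand with 4505 and 4796 counts, by 68 bases. A second GENCODE M21 entry named Ddit3 overlaps it on the same strand by 2925 bases and is absent from the deposited data. Ppp1r15a overlaps Tulp2 by 717 bases, where Tulp2 held 21 and 10 counts. No overlapping gene was found for Atf4, Eif2s1, Eif2ak4 or Trib3. The deposited posterior SD of the gene count was 0 in both libraries for 9 of the 10 genes, those with overlaps included, and 0.50 and 0.63 for Eif2s1, so the tables show almost no reads divided with other genes.

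Stress-response mRNAs are known for upstream reading frames, and the annotated leading coding transcripts were read for ATG triplets before the coding start. Of the 10 genes, 7 had at least 1, against 55.6% of 41347 annotated coding transcripts with a 5′ leader, and 4 had a frame overlapping the coding start, against 19.8%. These 4 were Atf4, Eif2s1, Eif2ak2 and Eif2ak3. Atf4 has a leader of 594 nt with 3 upstream ATGs that open frames of 36, 3 and 59 codons, 1 of them overlapping the coding start. Ppp1r15a has 3 in 283 nt and Ppp1r15b 3 in 604 nt. Ddit3 has 2 in 186 nt, read to a stop after 34 and 31 codons. Each ATG was read on its own, so ATGs in the same frame are not separate reading frames. Such nesting was not tested. Eif2ak1, Eif2ak4 and Trib3 had none, with leaders of 103, 91 and 176 nt. These are properties of the annotation, and no translation was measured.

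Promoters were searched, on both strands of the RefSeq windows from 250 bases before to 50 after each start (GRCm38.p6), for 3 motifs tied to this pathway. They were TGATGNAA for the C/EBP-ATF composite element that ATF4 and CHOP bind, TGACGTCA for the cAMP response element, and GAAA, any 2 bases and GAAA again for the interferon-stimulated response element. Windows were found for 9 of the 10 genes, and Ppp1r15b had none. The motifs were found in 1, 1 and 3 of the 9 genes in that order of naming, against 4.51%, 2.03% and 3.99% of 27025 genes, or 3.97%, 1.79% and 3.44% of their 32851 promoters. Shown is 1 match of each motif, in genes known to answer to ATF4, to stress and to interferon, 5′ to 3′ on the gene's strand, with the matching letters in capitals. The Trib3 match lies 15 to 22 bases after the start, on the opposite strand, at chr2:152344028-152344057 (minus). The Ppp1r15a match lies at -12 to -5 from the start, at chr7:45526262-45526291 (minus). The Eif2ak2 match lies 19 to 28 bases after the start, at chr17:78882535-78882564 (minus).
Trib3: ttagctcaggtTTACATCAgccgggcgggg
Ppp1r15a: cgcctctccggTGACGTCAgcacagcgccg
Eif2ak2: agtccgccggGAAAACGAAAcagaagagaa
The other matches of the interferon element begin at -220 in Ppp1r15a and at -212 in Eif2s1. A match is a description of letters and not a bound site. Where no match was found, the letters are absent from the window and nothing more follows.

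Genes on which ATF4 is known to act were measured as a list of 41, of which 24 were detected, against 38.7% of nuclear protein-coding genes, and 27 reached 1 TPM after rescaling. The list median was 1.55 ± 0.049 TPM (SD of the library medians), against 0.055 TPM over all nuclear protein-coding genes. Asparagine synthetase, Asns, led with 116 and 103 TPM, a mean of 109 ± 9.23. Sars, a seryl-tRNA synthetase gene, stood at 73.8 ± 20.9 and Shmt2, a mitochondrial enzyme of serine and folate metabolism, at 39.5 ± 1.01 (SD, n = 2). At the other end were Chac1, a glutathione-degrading enzyme, with 0 counts in both libraries, and Gdf15, a stress cytokine, with 0 and 2 counts. By the library test 3 of the 35 tested were called, all lower in replicate 2 and all far below 1 TPM. That share is close to the 9.83% of all tested genes called lower there. The 3 called were Nupr1 with 25 and 9 counts, Slc7a3 with 19 and 0 and Vldlr with 36 and 8. Among relatives of ATF4 that form dimers with it or share its family, 6 of 10 were detected, and the median was 4.26 ± 0.654 TPM. Nfe2l2 stood at 17.6 ± 1.14 TPM, Atf2 at 10.8 ± 2.96 and Jund at 5.71 ± 2.21, whereas Atf3 had 4 and 0 counts and Cebpa 2 and 1. Cebpb was the 1 of these called, with 2.40 and 5.83 TPM in replicates 1 and 2 and a log2 count ratio of 1.48 of replicate 2 over replicate 1.

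The mRNAs of proteins that hold the kinases in check or help to activate them were detected throughout, 14 of 14. Their median was 9.02 ± 0.983 TPM (SD of the library medians). Chaperone genes led, with Hspa8 at 597 ± 43.2 TPM, Hsp90aa1 at 400.0 ± 69.2 and Hsp90ab1 at 243 ± 60.1. HSP90 is known to assist the maturation of HRI. The lowest were Impact, an inhibitor of GCN2 activation, at 4.19 ± 0.559 TPM and Prkra, an activator of PKR, at 3.99 ± 0.403 (SD, n = 2).

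The other arms of the unfolded protein response, which work beside PERK, had 21 of 22 genes detected and a median of 10.4 ± 0.258 TPM (SD of the library medians). The chaperones Calr at 160 ± 22.8 TPM, Hsp90b1 at 73.2 ± 13.1 and Hspa5 at 63.0 ± 6.77 were the highest. Atf6b stood at 1.54 ± 0.233 TPM, and Syvn1, a ubiquitin ligase of the endoplasmic reticulum, at 0.88 and 1.02 TPM was the 1 gene of the 22 not detected (SD, n = 2). Rescaled to nuclear protein-coding genes it stood at 4.88 and 6.01.

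PKR is itself an interferon-induced gene, so the sensing of double-stranded RNA and the interferon response were described beside it. In 14 of 20 genes the level reached 1 TPM in both libraries, and the median was 2.25 ± 0.071 TPM (SD of the library medians). The interferon receptor subunit gene Ifnar1 stood at 12.4 ± 1.39 TPM (SD, n = 2). Classical induced genes were near 0, with Mx1 at 12 and 1 counts and Ifit1 at 6 and 7. Of the 20 tested, 5 were called between the libraries, all at a mean of 0.10 TPM or lower, and they went both ways, beside 13.9% of all tested genes called. Isg15 with 3 and 16 counts and Oas1a with 18 and 36 were higher in replicate 2, and Mx1, Oasl2 with 16 and 4, and Ifit3 with 29 and 2 were lower. Ifit3 shared reads with other genes, so its counts are uncertain. Over all 8 lists, 88 of 117 different genes were detected, against 38.7% of nuclear protein-coding genes, and 92 were after rescaling. Of the 117, 10 were called, the tenth being Trib1, which was lower in replicate 2 by a log2 count ratio of -1.15. Beside this, 13.9% of all tested genes were called, but the 117 include some with under 10 counts that were not tested.

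**Figure D4:**
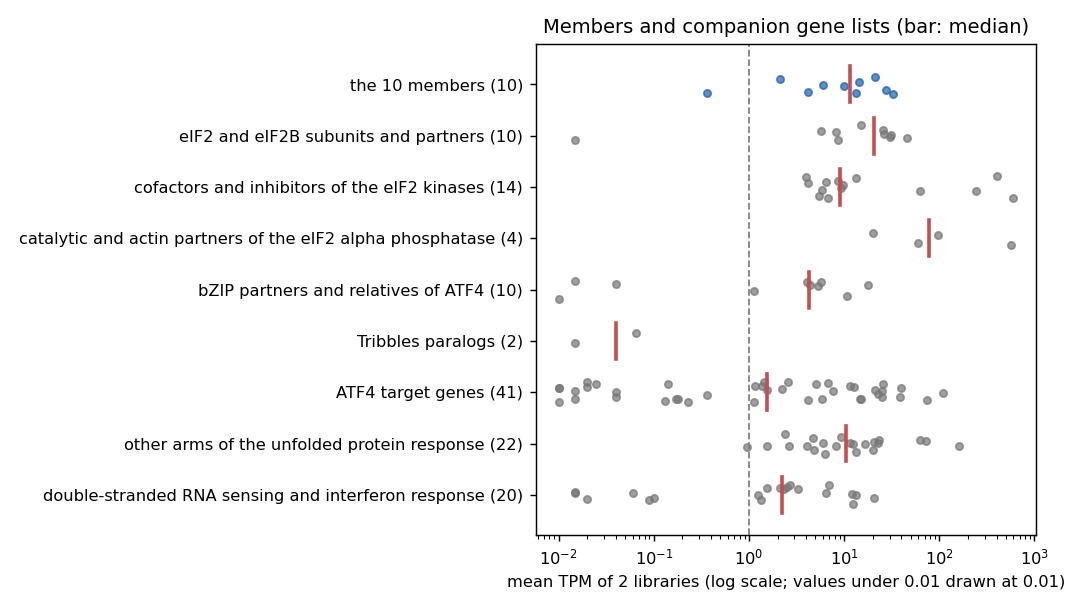
Mean TPM of 2 libraries (log scale, values under 0.01 drawn at 0.01) for the 10 pathway genes and for each gene of the 8 companion lists, with list sizes in brackets. Each point is a gene, red bars are list medians and the dashed line marks 1 TPM; kinase cofactors and phosphatase partners lie wholly above it, and both Tribbles paralogs below it.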

How the data were processed

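Per the file headers, the authors deposited for each library a gene and a transcript table with an expected count, a TPM, the percent of the gene's TPM in each transcript, and a TPM interval whose level no header states. The deposited read-me texts name mm10 and GENCODE M4. The aligner and quantifier are not given in the sources used. Deposited expected counts are estimated reads, rounded here to whole numbers for the library test. The bounds of the TPM interval and the posterior SD of the count, kept as signal values on the TPM and read scales, were used as deposited by the authors.

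The 10 members and all lists were chosen with earlier results of these data known. Named were the members, the 3 highest and 2 lowest genes of each list and every gene called, except a few that are not reported here. Likeness of pattern to other genes was not computed, since 2 libraries of 1 group give no pattern over conditions. Symbols, types and coordinates came from GENCODE M21 on GRCm38, and 2 list genes were matched through RefSeq synonyms. Log2 values of TPM used a pseudocount of 1. Genes with under 10 counts over both libraries were not tested; library sizes carried TMM factors of edgeR 4.0.16, with DESeq2 1.42.0 size factors as an alternative (R 4.3.3). Alternatives were also another pseudocount, other detection thresholds, CPM, rescaled TPM, other estimates of the SD, protein-coding transcripts alone and each library alone. The rest used scipy 1.17.1, numpy 2.4.6, matplotlib 3.10.9 and pandas 2.3.3 in Python 3.11.15, and the tests were tested on simulated data. Intervals and floors cover counting error only, since reads carry no molecular identifiers, and p-values of the library test hold counting error and no estimate of the spread between cultures.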

Additional observations from a re-analysis of the deposited data

How the results depend on the processing

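With 2 libraries of 1 group, no statement rests on a p across replicates, and shares of transcripts that overlap widely are uncertain. No paired analysis was possible because the 2 libraries form 1 group, so no groups share replicate numbers. Detection of 9 of the 10 genes held at 0.5 TPM, with posterior mean TPM and in each library alone; 7 passed 5 TPM and 10 passed 1 TPM after rescaling to nuclear protein-coding genes. Rescaling put the median of the 10 genes at 66.5 in place of 11.6 TPM. Passing pairs numbered 31 with a pseudocount of 0.1, in CPM and after rescaling, 21 with the SD from all genes above 0, and 32 to 33 in single libraries. In CPM the 31 were not the same pairs as in TPM. There Ddit3 and Atf4 over Eif2ak1 and over Eif2ak4, and Ppp1r15a over Eif2ak4, no longer passed. Eif2s1 over Ddit3 and Ppp1r15b over Atf4, Ppp1r15a and Eif2ak2 were among those that entered. After rescaling, Ppp1r15a over Eif2ak1 entered and Eif2ak4 over Eif2ak3 left. Kinase pairs past the limit fell to 2 with the SD from all genes above 0. Neighbours past the limit numbered 5 in CPM, 1 after rescaling and 1 with the SD from all genes above 0. Without the 2-fold minimum 6 of the 10 genes and 9100 genes in all were called between the libraries. With posterior mean shares the median share of the leading transcripts was 77.2% in place of 80.9%. The cause was not tested.

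In CPM, which has no length correction, 10 ratios turned: Ddit3 over Ppp1r15b to -2.30, over Atf4 to -0.31, over Ppp1r15a to -0.48, over Eif2ak2 to -0.99, over Eif2ak1 to -0.38 and over Eif2ak4 to -0.12, Atf4 over Ppp1r15a to -0.17, over Eif2ak2 to -0.68 and over Eif2ak1 to -0.071, and Ppp1r15a over Eif2ak2 to -0.51 (log2). Of these, Ddit3 over Ppp1r15b and over Eif2ak2 passed the limit of 0.75 in the turned direction. With protein-coding transcripts alone 3 turned: Ppp1r15b over Atf4 to -0.83, over Ppp1r15a to -0.46 and over Eif2ak2 to -0.13.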
